A study of Homo sapiens with 24 samples.

Results

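The A549 arm of a series on IGF2BP1 knockdown is described here across all genes. A549 is a human lung adenocarcinoma cell line. Members were taken by the labelled cell line, which gave 6 of the 24 libraries of the series: 3 from cells given a control siRNA (siC) and 3 from cells given a pool of siRNAs against IGF2BP1 (siI1), all harvested 72 h after transfection. The control siRNA was built on the sequence of a worm microRNA. The other 18 libraries hold the same pair of groups in ES2 (ovarian cancer), MV3 (melanoma) and PANC1 (pancreatic cancer), with PANC1 harvested at 96 h, and they serve below only to show where A549 differed. The study's methods call the replicates biological, the labels do not say how they were kept apart, and p-values measure the spread between these libraries.

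IGF2BP1 is an oncofetal RNA-binding protein: it is made in the embryo, is silent in most adult tissues, and returns in many carcinomas, where it binds mRNAs and is known for slowing their decay. HIF factors, made of an oxygen-sensitive alpha subunit and ARNT, turn on genes for glucose use, vessel growth and pH control when oxygen is short. SRF, with MRTF coactivators that sense unpolymerised actin, turns on genes of the actin cytoskeleton.

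Gene values are FPKM, reads per kilobase of gene length scaled by an adjusted library total, and a fold change is the log2 difference siI1 minus siC on the log2(FPKM + 0.5) scale, which understates the change of low genes. The A549 libraries held 3105215 to 4553326 reads in genes, with 11396 to 12095 genes at 20 reads or more, fewer reads than in the other lines (6421764 to 20082702). Protein-coding genes took 91.1 to 92.3% of these reads. In a principal component analysis the first component (43.9% of variance) parted the siC libraries (-22.1 to -19.4) from the siI1 libraries (15.6 to 25.5). The second (17%) set siI1 replicate 3 (24.2) apart from siI1 replicates 1 and 2 (-15.6 and -12.9). The defining markers were partly those of the labelled tissue. All 6 epithelial markers were measured, whereas of 18 alveolar markers 4 were tested and 8, among them surfactant genes SFTPA1, SFTPB and SFTPC and the lung lineage factor NKX2-1, were listed at 0. Endothelial and pancreatic markers gave no testable gene, and PTPRC and CD3E of leukocytes and TYR and SOX10 of melanocytes were at 0.

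The targeted gene fell in every library given its siRNAs. IGF2BP1 (ENSG00000159217, chr17:48997385-49056145, plus strand, hg38) stood at 39.8, 39.8 and 39.6 FPKM in siC replicates 1 to 3 and at 15.2, 16.4 and 15.2 FPKM in siI1 replicates 1 to 3. The groups did not overlap, and the change was -1.32 (SE 0.05, limma adjusted p = 0.000319). The fall was larger in ES2 (-1.55, adjusted p of the difference 0.0237) and PANC1 (-1.83, 2.8e-05), and the MV3 value of -1.52 differed from A549 with an adjusted p of 0.0529. Its paralogs, which share its RNA-binding domains, did not pass the test. IGF2BP2 went from 9.22, 9.55 and 11.4 to 10.4, 10.1 and 12.1 FPKM (0.11, adjusted p = 0.593), and IGF2BP3 from 14.2, 14.1 and 14.8 to 16, 16.2 and 15.4 FPKM (0.14, 0.171).

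Of 18411 genes tested, 1441 were lower (7.83%) and 1092 higher (5.93%) after the knockdown at an adjusted p under 0.05. Among the 11756 protein-coding genes tested the shares were 11.4% lower (1340 genes) and 7.94% higher (933 genes), and these are the nearer background for the gene lists below. The median change over all genes tested was -0.01 with a median SE of 0.16, and the median absolute change of a called gene was 0.55. Every one of the 2533 called genes had siC and siI1 libraries that did not overlap. So had many genes without a call: of all 18411 tested, 3415 had lower and 2837 higher siI1 values without overlap. Where groups are said below not to overlap, this adds no evidence to a call. Changes of at least 1 on the log2 scale numbered 223 lower and 155 higher. Leaving out 1 library, which leaves fewer samples to estimate the spread, lowered the counts in each of the 6 cases. They were lowest at 796 lower without siC replicate 1 and 526 higher without siI1 replicate 2. Counts on the lists below are given with their range over these 6 cases or with the libraries whose omission moved them most.

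**Figure D1:**
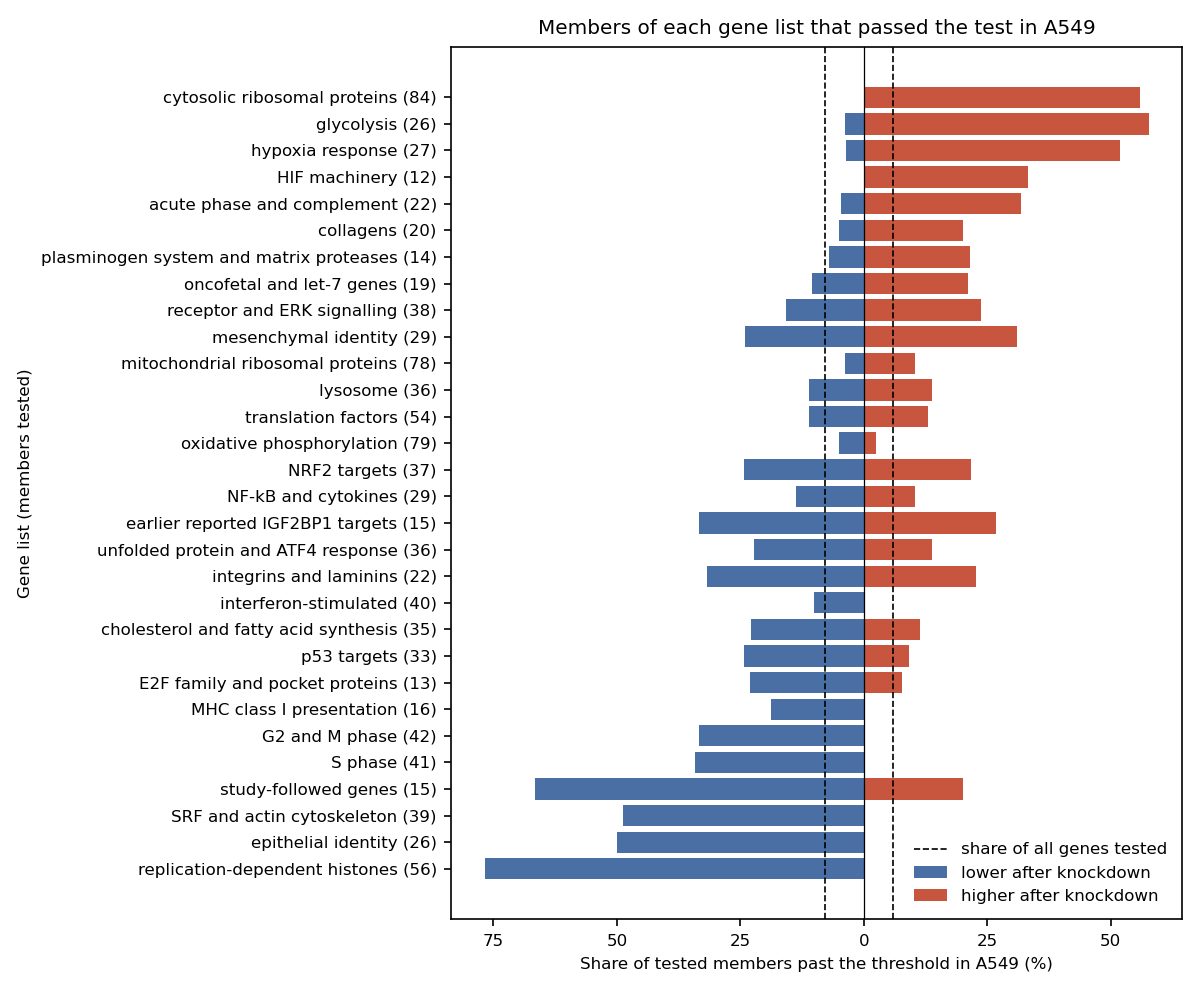
Share of the tested members of each gene list (percent, x axis) that was called lower or higher in A549, one row per list, with dashed lines at the shares of all genes tested. Hypoxia response and glycolysis stand furthest on the higher side together with cytosolic ribosomal proteins, and histones, the transcripts the study followed, epithelial identity and SRF with the actin cytoskeleton stand furthest on the lower side.

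Genes of the hypoxia response rose together. Of 30 listed, 27 were tested, 14 rose and 1 fell, with a median change of 0.54. When each library was left out in turn, 10 to 13 of them were higher. CA9, a carbonic anhydrase of the cell surface that acidifies the surroundings (chr9:35673928-35681159), stood at 2.06, 2.41 and 0.956 FPKM in siC and at 11.9, 10.8 and 10.5 FPKM in siI1. Every siI1 value was above every siC value, with a change of 2.38 (SE 0.26, adjusted p = 0.00356).

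The other large rises on this list covered secreted factors, stress signalling and mitochondrial turnover. ANGPTL4, a secreted inhibitor of lipoprotein lipase, went from 4.35, 3.34 and 3.49 to 14.9, 12.4 and 15.7 FPKM (1.81, SE 0.13, adjusted p = 0.00112). DDIT4, an inhibitor of mTORC1, went from 48.9, 44.1 and 50.9 to 151, 163 and 161 FPKM (1.71, SE 0.07, 0.000319). PLOD2, a lysyl hydroxylase for collagen, went from 60.7, 63.9 and 57.4 to 172, 184 and 190 FPKM (1.58, SE 0.06, 0.000319). The siI1 values of all 3 lay well above the siC values, without overlap.

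VEGFA, the main angiogenic growth factor, chosen like the rest of this paragraph after its values were seen (BNIP3 and P4HA2 excepted), went from 3.31, 3.46 and 3.43 to 8.61, 9.54 and 9.94 FPKM (1.33, SE 0.09, adjusted p = 0.00086). BNIP3, a mitochondrial receptor for mitophagy, went from 12.4, 12 and 9.12 to 30.1, 32.2 and 31.1 FPKM (1.45, SE 0.12, 0.00156), and its relative BNIP3L from 24.6, 26.1 and 20.3 to 44.4, 42.4 and 44 FPKM (0.88). P4HA1, the catalytic subunit of collagen prolyl hydroxylase, went from 28.3, 27.2 and 25.7 to 57.2, 59.1 and 61 FPKM (1.11, SE 0.06, 0.000474). All of these had groups that did not overlap. P4HA2, another such subunit, was the only member that fell, from 11.2, 9.96 and 10.3 to 7.42, 7.09 and 6.71 FPKM (-0.54, SE 0.08, 0.00895). ADM (0.03), CA12 (0.10) and BHLHE40 (-0.12), also well known hypoxia genes and named after their values were seen, did not pass.

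Stretches from the starts of genes that rose are shown because HIF binds a short core, ACGTG, at many hypoxia genes. They are RefSeq promoter sequences of GRCh38.p14, read 5′ to 3′ on the gene's strand, and capitals mark the core on either strand (ACGTG, or CACGT where it lies on the other strand; overlapping copies run together). CA9 (chr9:35673890-35673927, plus strand) ends at the base before its start. The others are BNIP3 (chr10:131982032-131982076, minus strand), DDIT4 (chr10:72273779-72273823, plus), P4HA1 (chr10:73096928-73096972, minus), PGK1 (chrX:78104045-78104089, plus) and LDHA (chr11:18394470-18394514, plus), the last pair from the glycolysis list.
CA9: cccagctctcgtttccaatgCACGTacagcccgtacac
BNIP3: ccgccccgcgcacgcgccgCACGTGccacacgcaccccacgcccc
DDIT4: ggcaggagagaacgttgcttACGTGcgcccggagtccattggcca
P4HA1: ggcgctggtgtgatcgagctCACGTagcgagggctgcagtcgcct
PGK1: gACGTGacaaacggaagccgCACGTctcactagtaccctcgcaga
LDHA: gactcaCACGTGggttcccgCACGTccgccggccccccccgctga

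The core occurred in the 250 bases before the start of 5101 of 27305 promoters (18.7%) and of 2310 of 9679 promoters of genes tested in A549 (23.9%). Among hypoxia genes with a promoter in the table it occurred in 14 of 22 (63.6%), in 7 of the 10 that rose (70%) and in 7 of the 12 that did not (58.3%). Among glycolysis genes it occurred in 9 of 24 (37.5%), in 6 of the 15 that rose (40%) and in 3 of the other 9 (33.3%). The hypoxia list was assembled from known hypoxia genes, so an excess of the core over all promoters is part of how it was made. A match describes letters only.

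Glycolysis genes rose as well: 15 of 26 tested were higher and 1 was lower, with a median of 0.36. Leaving out 1 library gave 10 to 14 higher, the fewest without siI1 replicate 2. PDK1, a kinase that shuts pyruvate out of the mitochondrion, went from 1.22, 1.5 and 1.36 to 4.84, 4.62 and 4.23 FPKM (1.45, SE 0.13, adjusted p = 0.00198). SLC16A3, the lactate exporter MCT4, went from 6.98, 5.64 and 5.78 to 17, 17.5 and 18.5 FPKM (1.46, SE 0.10, 0.00086). PFKFB4, which makes and breaks the activator of phosphofructokinase, went from 1.73, 1.65 and 1.87 to 4.78, 4.03 and 4.16 FPKM (1.10, SE 0.13, 0.00399). In all 3 genes the siI1 libraries lay above the siC libraries.

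The abundant enzymes of the pathway moved less. ENO1, the main enolase, went from 467, 429 and 460 to 623, 671 and 647 FPKM (0.52, SE 0.06, adjusted p = 0.00346). LDHA, which turns pyruvate into lactate and was chosen after its values were seen, went from 217.7, 201.2 and 188.8 to 322.1, 338.4 and 348.4 FPKM (0.73, SE 0.07, 0.00189). PGK1 went from 139, 132 and 115 to 212, 219 and 214 FPKM (0.74, SE 0.07, 0.00264), and the glucose transporter SLC2A1 from 28.3, 29.3 and 27.8 to 38.7, 37.1 and 39.3 FPKM (0.42, SE 0.05, 0.0039), both also chosen after their values were seen. GAPDH, widely used as a reference gene, rose by 0.39 (adjusted p = 0.0133), and lost its call without siI1 replicate 2 (0.0533). PFKFB3, the other main member of the PFKFB4 family, fell from 86.2, 83.5 and 90.8 to 63.1, 64.2 and 66.2 FPKM (-0.43, SE 0.05, 0.00393). Pseudogene copies of LDHA, which share its sequence, summed to 9.22 to 13.9 FPKM in siC and 20.8 to 26.9 FPKM in siI1, so reads may be split between them.

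In the HIF machinery 4 of 12 genes were higher (2 or 3 with any 1 library left out) and none was lower, with a median of 0.16. HIF1A, the oxygen-sensitive subunit, went from 122, 137 and 121 to 175, 174 and 175 FPKM (0.47, SE 0.06, adjusted p = 0.00538). HIF1A rose by 0.54 in ES2 as well (adjusted p of the difference 0.605) and changed by -0.02 and -0.38 in MV3 and PANC1. CITED2, which competes with HIF for its coactivators, went from 6.38, 5.85 and 7.11 to 11.8, 10.2 and 10.5 FPKM (0.71, SE 0.10, 0.00778). VHL went from 21.5, 24.4 and 21.1 to 30.8, 29.6 and 28.4 FPKM (0.40, SE 0.07, 0.0173). EPAS1, the alternative alpha subunit, named after its values were seen, did not pass (0.17, 0.179). Summed over the list, hypoxia genes stood at 340 to 370 FPKM in siC and 686 to 737 in siI1, and glycolysis genes at 3140 to 3390 and 4118 to 4352.

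The size of these changes differed between lines. In ES2, MV3 and PANC1 the median over hypoxia genes was 0.23, 0.19 and 0.04, and over glycolysis genes -0.09, -0.09 and 0.04. Hypoxia genes were called higher there in 8 of 22, 13 of 26 and 6 of 22 tested and lower in 1, 6 and 2, and CA9, tested in MV3 but not in ES2 or PANC1, rose in MV3 (1.49). Among genes called in A549, the rise was larger than in each of the 3 other lines, at an adjusted p under 0.05 for all 3 differences, for 4 hypoxia genes (VEGFA, PLOD2, DDIT4 and BNIP3) and 10 glycolysis genes. Over all 12816 genes tested in every line the share with such a rise was 1.75% (224 genes). VEGFA changed by 0.04, 0.26 and 0.00 in ES2, MV3 and PANC1, and the smallest difference was 1.08. SLC2A1 changed by 0.02, 0.01 and -0.48. PLOD2 changed there by 1.13, 0.60 and -0.22, and DDIT4 by -0.03, 1.12 and -0.23. P4HA1 (1.01), BNIP3L (0.90) and STC2, all called in A549, rose in ES2 too. Their adjusted p of the difference from ES2 was 0.545, 0.902 and 0.307. In MV3 and PANC1 these 3 genes changed less than in A549 (adjusted p under 0.05 for each difference). Glycolysis genes were called higher in 4 of 26, 1 of 25 and 4 of 24 tested in ES2, MV3 and PANC1, and lower in 6, 5 and 2. SLC16A3 rose in ES2 too (1.15, adjusted p of the difference 0.102), and PDK1 rose there by 0.62, less than in A549 (0.000356). With FPKM rescaled to the same sum in every library 5 hypoxia and 8 glycolysis genes rose more than in each other line, and with all libraries thinned to the same number of reads 3 and 7. PANC1 was harvested later, so line and time cannot be told apart there.

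**Figure D2:**
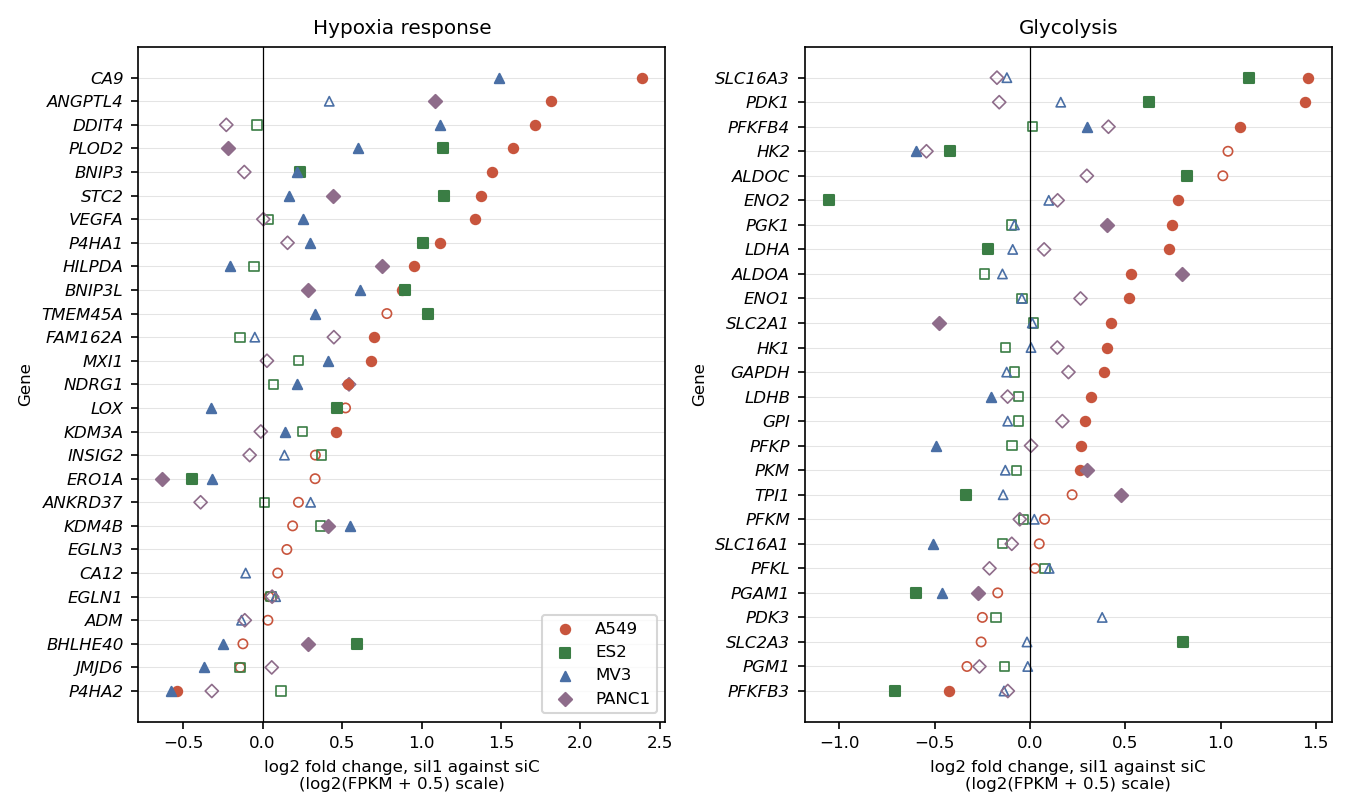
Log2 fold change (siI1 minus siC, x axis) of each tested hypoxia and glycolysis gene (rows) in A549, ES2, MV3 and PANC1, with filled points past the threshold in that line and open points not. The A549 points of CA9, DDIT4, VEGFA, BNIP3 and PDK1 lie above 1, and those of P4HA2 and PFKFB3 lie below 0.

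Epithelial identity genes fell. Of 37 listed, 26 were tested, 13 fell and none rose, with a median of -0.57, and 12 were lower with any 1 library left out. Among them were simple keratins, the intermediate filaments of glandular epithelium. KRT7 (chr12:52232520-52252186) went from 393, 385 and 418 to 148, 153 and 146 FPKM (-1.41, SE 0.05, adjusted p = 0.000319). KRT8 (chr12:52897187-52949954) went from 535, 485 and 516 to 236, 254 and 235 FPKM (-1.08, SE 0.06, 0.000586), and KRT18, its partner in the filament, from 162, 140 and 185 to 52.3, 56.2 and 60.2 FPKM (-1.51, SE 0.11, 0.00109). All 9 siI1 values of these 3 genes lay far below the siC values. In bulk RNA, fewer cells of a kind and less RNA per cell cannot be told apart.

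KRT8 and KRT18 have many processed pseudogenes and their loci overlap (KRT18 at chr12:52948871-52952906), so reads may be split between copies. The pseudogenes summed to 48.1 to 52.6 FPKM in siC and 32.5 to 36.2 in siI1 for KRT8, and to 12.6 to 18.7 and 6.64 to 9.23 for KRT18. ELF3, an epithelial transcription factor, went from 20, 18.1 and 17.6 to 7.04, 5.69 and 5.85 FPKM (-1.51, SE 0.10, adjusted p = 0.00086), without overlap.

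Junction genes and another keratin, chosen after their values were seen, fell too. CDH1, the E-cadherin of adherens junctions, went from 18.3, 18.9 and 18 to 9.81, 10.8 and 8.36 FPKM (-0.90, SE 0.10, adjusted p = 0.00352). CLDN2, a pore-forming claudin, went from 38.7, 38.3 and 37.5 to 21, 18.1 and 17.1 FPKM (-1.01), and KRT19 from 124, 115 and 111 to 78.1, 80.6 and 82.9 FPKM (-0.53). The desmosomal genes JUP (-0.71) and DSP (-0.61) and the catenin CTNND1 (-0.52) also fell. CLDN1 did not pass (0.15, 0.151), nor did the hair keratin KRT81 (0.06, 0.682). The 6 epithelial markers together went from 1144 to 1249 FPKM in siC to 526 to 557 in siI1, whereas the sum over alveolar markers was 26.1 to 28.2 and 32.3 to 34.5, with LPCAT1, a surfactant lipid enzyme, the member that rose (0.59, 0.0103). KRT7, KRT8 and KRT18 made up most of the epithelial sum. EPCAM, a low member of the 6 named after its values were seen, did not pass (0.13, 0.831).

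The keratin falls were larger in A549 than in each other line. KRT7 changed by 0.56, -0.06 and -0.32 in ES2, MV3 and PANC1, and KRT8 rose in all 3 of them (0.51, 0.24 and 0.45). KRT7 averaged only 0.88 FPKM in MV3, a level at which changes are understated. With a minimum mean of 1 FPKM in every line its differences were not tested. KRT18 and CTNND1 also met all 3 difference tests, 4 epithelial genes in all, beside 1.92% (246) of the 12816 genes tested in every line. For the list as a whole, 6 of 13 tested members rose and 2 fell in ES2, and 9 of 22 fell and 3 rose in PANC1, where CDH1 changed by -1.58.

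Genes of SRF and the actin cytoskeleton fell in A549: 19 of 39 tested were lower and none was higher, with a median of -0.39. Leaving out 1 library gave 15 to 20 lower. SRF itself, the transcription factor (chr6, plus strand), went from 12.6, 10.4 and 12.3 to 3.85, 3.98 and 3.42 FPKM (-1.53, SE 0.11, adjusted p = 0.00101). TAGLN, an actin-bundling protein of smooth muscle (chr11:117199370-117207464), went from 14.2, 16.3 and 14.2 to 1.59, 2.81 and 2.52 FPKM (-2.48, SE 0.18, 0.00121). TGFB1I1, a focal adhesion adaptor, went from 6.22, 4.98 and 7.85 to 2.36, 2.24 and 2.04 FPKM (-1.32, SE 0.17, 0.00622). No siI1 library reached a siC library in any of the 3.

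Structural genes of the list, chosen after their values were seen unless a later sentence says otherwise, fell from much higher levels. MYH9, the heavy chain of nonmuscle myosin, went from 200, 198 and 215 to 85, 89 and 89.1 FPKM (-1.22, SE 0.05, adjusted p = 0.000351). FLNA, the actin cross-linker filamin, went from 391, 380 and 422 to 211, 222 and 207 FPKM (-0.90, SE 0.06, 0.00086), and CAP1, which recycles actin monomers, from 101, 92.2 and 93.5 to 49.1, 53 and 51.7 FPKM (-0.89). TPM4 (-0.68), ZYX (-0.61) and CALD1 (-0.49) fell too. ACTB, named by rule, changed by -0.44 (0.0157) and lost its call without siC replicate 1, siI1 replicate 1 or siI1 replicate 2 (adjusted p up to 0.0576). ACTG1, the other cytoplasmic actin, did not pass: its values were 816, 770 and 924 FPKM in siC and 870, 908 and 953 in siI1 (0.13, 0.391). The immediate SRF target FOS (0.28) and the YAP and SRF target CTGF (-0.51, 0.255) did not pass either.

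The CArG box, which SRF binds, is shown where it lay before the start of genes that fell, in capitals, from the same RefSeq table and on the gene's strand. The stretches are SRF (chr6:43171239-43171268, plus), FLNA (chrX:154374699-154374748, minus), TPM4 (chr19:16067345-16067394, plus) and CNN2 (chr19:1026499-1026548, plus).
SRF: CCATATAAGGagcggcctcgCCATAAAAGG
FLNA: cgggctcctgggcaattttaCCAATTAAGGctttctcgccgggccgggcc
TPM4: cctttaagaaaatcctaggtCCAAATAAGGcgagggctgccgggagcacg
CNN2: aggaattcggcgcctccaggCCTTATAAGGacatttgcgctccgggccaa

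A CArG box, which reads the same on both strands, occurred in the 250 bases before 312 of 27305 starts and 84 of 9679 starts of tested genes (0.868%). In the SRF and actin list it occurred in 6 of 35 (17.1%), in 4 of the 17 that fell (23.5%) and in 2 of the other 18 (11.1%). The list was assembled around known SRF targets, so an excess over all promoters is part of how it was made.

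SRF also fell in the other lines (-1.23, -0.90 and -0.68 in ES2, MV3 and PANC1), whereas its list did not move one way there: 7, 7 and 8 members rose and 14, 21 and 9 fell, with medians of -0.05, -0.20 and 0.00. In A549 9 members fell more than in each other line: CNN2, MYH9, CAP1, TPM1, TGFB1I1, TUFT1, TPM4, PDLIM7 and FLNA. TPM1, a tropomyosin, fell in A549 from 87.7, 91.9 and 93.6 to 56.4, 59.6 and 58.6 FPKM (-0.64, SE 0.05, adjusted p = 0.00112) and rose in ES2, MV3 and PANC1 by 1.27, 0.38 and 0.25. With FPKM rescaled to the same sum, 4 members met the tests.

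**Figure D3:**
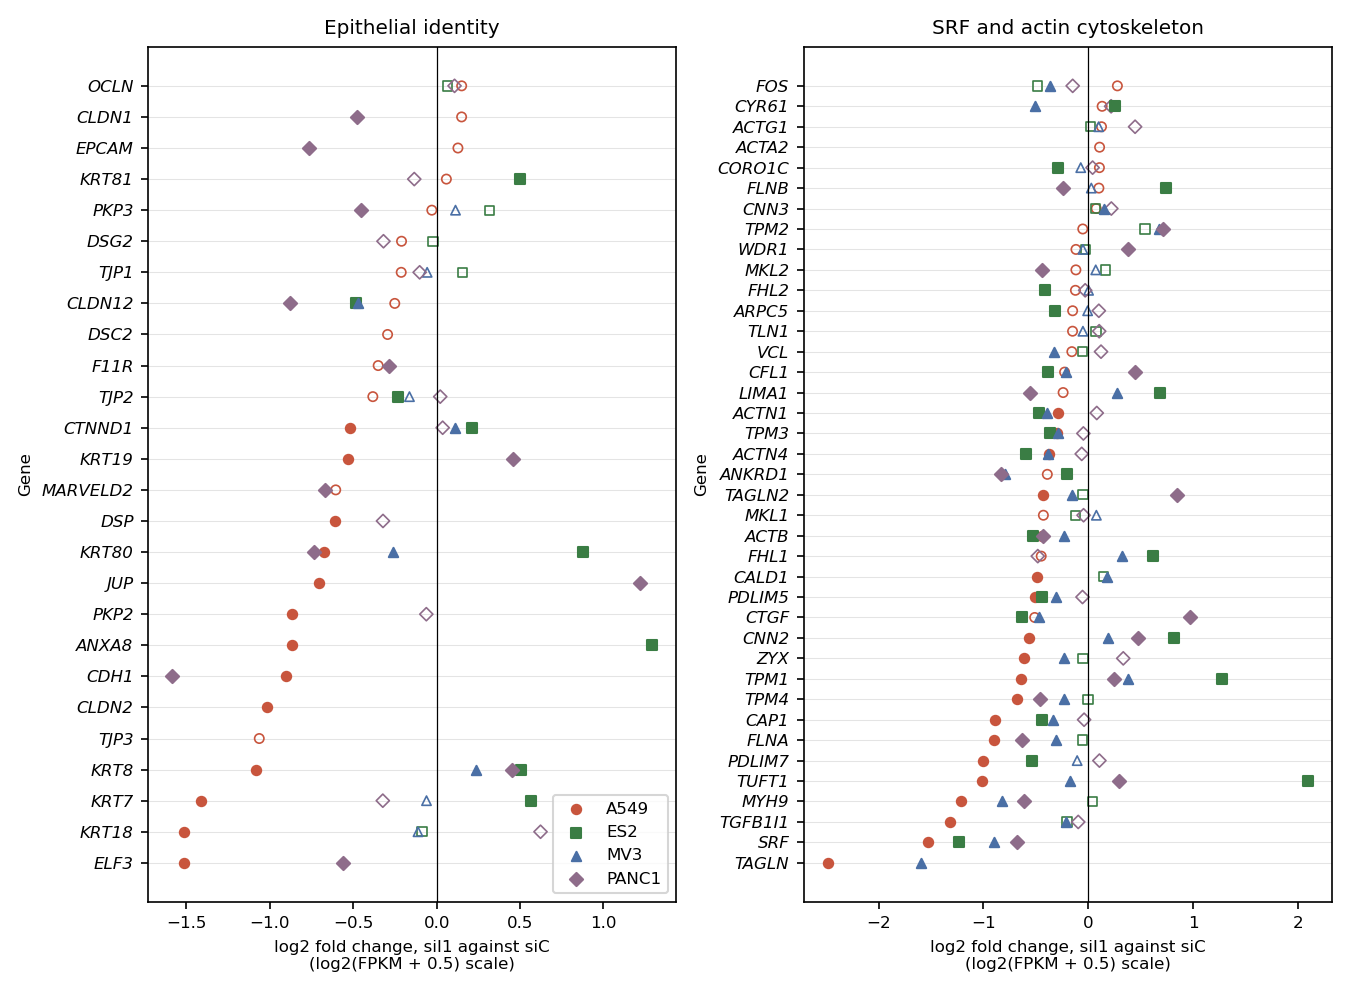
Log2 fold change (x axis) of each tested member of the epithelial and of the SRF and actin list (rows) in the 4 lines, filled where past the threshold and open where not. The A549 points of KRT7, KRT8 and KRT18 lie below -1 and left of those of the other lines. TAGLN has the lowest A549 point of the SRF and actin panel.

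Mesenchymal genes did not move one way in A549: 9 of 29 tested rose (6 or 7 with 1 library left out) and 7 fell (4 or 5, for any library), with a median of 0.08. Among the falls was THBS1, the matrix glycoprotein thrombospondin 1, from 31.5, 34.5 and 30.6 to 17.7, 18.2 and 15.8 FPKM (-0.88, SE 0.08, adjusted p = 0.00177), which rose in ES2 (1.26). PMEPA1, a TGF-beta target that dampens SMAD signalling, went from 164, 176 and 174 to 44.4, 52.7 and 47.5 FPKM (-1.83, SE 0.07, 0.000319), one of the largest falls of an abundant gene. FN1, fibronectin, named after its values were seen, went from 60.6, 56.6 and 57.9 to 41.7, 40.7 and 38.8 FPKM (-0.53, 0.00239).

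Other members of the mesenchymal list rose. CAV2, a caveolin, went from 13.2, 14.7 and 11 to 27.6, 28.7 and 26.1 FPKM (1.06, adjusted p = 0.00297), and CAV1, named after its values were seen like NT5E, from 82.5, 87 and 81.3 to 122, 124 and 134 FPKM (0.60). NT5E, the ectonucleotidase CD73, went from 17.1, 19 and 16.4 to 34.1, 36.3 and 37.2 FPKM (1.02). AXL, a receptor tyrosine kinase, went from 67.7, 65.2 and 66.9 to 93.3, 96.6 and 90.2 FPKM (0.48, 0.00201). The groups did not overlap in any of these. SNAI2, a repressor of CDH1, was at 4.12, 2.74 and 2.28 FPKM in siC and 8.18, 6.78 and 6.15 in siI1 (1.11, 0.0207). Its call was lost without siC replicate 2 or 3 or siI1 replicate 1 or 2 (adjusted p up to 0.0678).

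Integrin and laminin genes split by subunit, with 7 of 22 tested lower (4 without siI1 replicate 2, otherwise 5) and 5 higher (4 or 5), with a median of -0.05. ITGB1, the beta subunit common to most integrins, rose from 332, 350 and 313 to 558, 573 and 608 FPKM (0.81, SE 0.06, adjusted p = 0.00127), and ITGA2 from 16.9, 16.3 and 13.9 to 30, 28.2 and 29.3 FPKM (0.88, 0.00226). ITGA11, a collagen receptor subunit, fell from 2.6, 3.24 and 3.65 to 0.915, 1.03 and 1.09 FPKM (-1.27, 0.00757). ITGB6, the epithelial beta subunit of the TGF-beta activating integrin, fell from 4.9, 4.07 and 4.31 to 1.96, 1.38 and 1.86 FPKM (-1.15, 0.007), and LAMB3, a laminin of epithelial basement membranes, from 10.8, 8.9 and 9 to 4.11, 3.47 and 3.73 FPKM (-1.23, 0.00192). Collagens gave 4 higher and 1 lower of 20 tested (median 0.02; 2 or 3 higher with any 1 library left out, and none lower without siC replicate 2 or any siI1 library), led by COL11A1, from 14.2, 14.3 and 15 to 22.9, 24.5 and 22.8 FPKM (0.67, 0.00172).

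Of 14 matrix protease genes tested 3 rose, with any 1 library left out too, and 1 fell (median 0.06). ADAM17, which sheds growth factors and cytokines from the cell surface, rose from 24.7, 26 and 24.6 to 43.2, 42.7 and 45 FPKM (0.79, adjusted p = 0.000817). PLAUR, the urokinase receptor, rose from 9.96, 10.1 and 9.67 to 16.7, 14 and 15.2 FPKM (0.60), while it changed by -0.84 and -0.27 in ES2 and MV3. MMP7, a matrilysin of epithelia, was the 1 that fell (-0.54, 0.0147), without a call when siC replicate 1 or siI1 replicate 2 was left out (adjusted p up to 0.0583).

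The largest falls of protein-coding genes did not belong to 1 pathway. CCDC6, a coiled-coil protein known as a fusion partner of RET (chr10:59788747-59906556, minus strand), went from 22.1, 22.5 and 20 to 1.57, 2.48 and 1.69 FPKM (-3.21, SE 0.15, adjusted p = 0.000474), more than the targeted gene. HDLBP, a large RNA-binding protein with many KH domains, went from 42.2, 39.4 and 42.2 to 6.99, 7.89 and 7.55 FPKM (-2.39, SE 0.07, 0.000293). CDH17, an intestinal cadherin, went from 4.65, 3.41 and 3.92 to 0.319, 0.62 and 0.362 FPKM (-2.27, SE 0.21, 0.00218). No library of 1 group reached the other in these 3 genes, as the rule for naming them required.

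LBH, a transcription cofactor of limb and heart development, fell from 46.9, 43.9 and 45 to 7.81, 11.8 and 9.96 FPKM (-2.16, SE 0.14, adjusted p = 0.00086). RND1, a small GTPase that loosens actin and adhesion, was at 10.4, 8.6 and 9.13 FPKM in siC and at 0.903, 1.92 and 3.1 in siI1 (-2.10, SE 0.33, 0.0111), the widest spread of the group. CBX6, a Polycomb subunit, fell from 26.2, 24.5 and 24.9 to 5.11, 7.07 and 5.59 FPKM (-2.01), and changed by -1.33, -1.29 and -1.32 in ES2, MV3 and PANC1. The remaining members of the 12 largest falls, beside TAGLN and PMEPA1, were BZW2 (-1.90), a translation regulator; RAB15 (-1.90), a Rab GTPase of endosomes; CTDSP2 (-1.83), a small CTD phosphatase; and TNFSF15 (-1.78), a cytokine of the TNF family.

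The largest rise was in SUSD2, a membrane protein with a sushi domain, from 0.325, 0.476 and 0.735 to 4.89, 6.46 and 4.65 FPKM (2.53, SE 0.22, adjusted p = 0.00178). AK4, a mitochondrial adenylate kinase, went from 1.75, 2.59 and 2.2 to 10.4, 9.17 and 8.64 FPKM (1.89, SE 0.15, 0.00132), and STC1, the secreted hormone stanniocalcin, from 6.62, 7.57 and 5.11 to 24.9, 23.7 and 22.8 FPKM (1.82, SE 0.14, 0.00124). The siI1 libraries of all 3 lay above the siC libraries, as the rule for naming them required. AK4 has processed copies that may take some of its reads.

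OXTR, the oxytocin receptor, rose from 3.75, 3.84 and 2.93 to 11.2, 11 and 11.2 FPKM (1.54). ABCA1, which exports cholesterol to lipoproteins, rose from 8.02, 9.7 and 8.52 to 26.8, 26 and 25.2 FPKM (1.52, SE 0.08, adjusted p = 0.000586). C11orf86 (1.64), the granin SCG2 (1.72) and the secreted kinase PKDCC (1.53) complete, with CA9, ANGPTL4, DDIT4 and PLOD2, the 12 largest rises with a mean of at least 1 FPKM and 20 reads or more in each siI1 library. SCG2 lost its call without siI1 replicate 1 or 3 (adjusted p up to 0.0707).

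**Figure D4:**
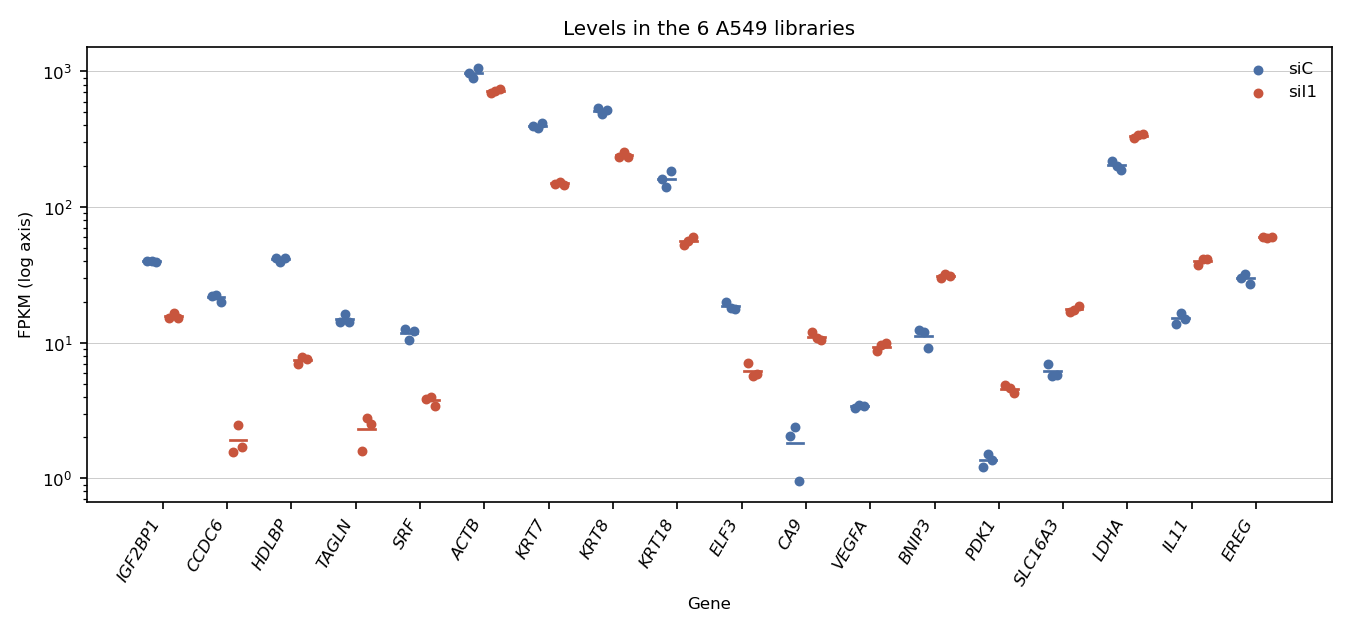
FPKM (log axis) of 18 genes in the 6 A549 libraries, points for libraries and a line for the mean of the 3 in each group. IGF2BP1, CCDC6, HDLBP, TAGLN, SRF and the keratins sit lower in siI1, CA9, VEGFA, BNIP3, PDK1, SLC16A3, LDHA, IL11 and EREG sit higher, and no gene shown has siC and siI1 points that overlap.

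Some cell cycle genes fell. Of 41 S phase genes 14 were lower and none higher (median -0.29), and of 42 G2 and M phase genes 14 were lower and none higher (median -0.25). The S phase count of lower genes was 17, 40 and 32 in ES2, MV3 and PANC1, with medians of -0.20, -0.59 and -0.52. The G2 and M phase count was 19, 39 and 39, with medians of -0.27, -0.42 and -0.64. Counts of calls also depend on reads, of which A549 had the fewest, and the S phase median of ES2 was nearer to no change than that of A549. Whether these counts differ between lines was not tested. With any 1 library left out the A549 counts were 7 to 9 and 6 to 10. UHRF1, which maintains DNA methylation at replication, went from 20.3, 23.6 and 23.6 to 12.5, 11.8 and 12 FPKM (-0.87, adjusted p = 0.00188). CCNE1, cyclin E1 of the entry into S phase, went from 18.6, 19.8 and 18.1 to 9.51, 10.9 and 11.3 FPKM (-0.81, 0.00297), and KIF4A, a mitotic kinesin, from 21.7, 19.7 and 19.7 to 7.27, 10.7 and 10.7 FPKM (-1.07, SE 0.15, 0.00826). The siI1 values of all 3 lay below the siC values. E2F1, the activator of S phase genes, changed by -0.77 (0.023) and lost its call without any 1 of the 3 siC libraries (adjusted p up to 0.08). Of 13 E2F family genes and pocket proteins 3 were lower and 1 higher (median 0.01), and none was lower without siC replicate 1 and none higher without siC replicate 1 or 3 or siI1 replicate 2 or 3.

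Replication-dependent histone genes fell broadly: 43 of 56 tested were lower and none was higher, with a median of -0.64, and 34 to 39 with 1 library left out. Their mRNAs lack a poly(A) tail and are measured here because ribosomal RNA was removed without selecting poly(A) tails. HIST1H1C, a linker histone, went from 594, 556 and 650 to 357, 382 and 394 FPKM (-0.66, adjusted p = 0.00364). All genes with HIST cluster symbols, a set taken by name and not the list itself, took 0.623 to 0.695% of reads in siC and 0.429 to 0.446% in siI1, without overlap. Histone genes of a cluster are near copies of each other, so single members are uncertain.

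Cytosolic ribosomal protein genes moved the other way by a small amount. Of 84 tested 47 were higher and none was lower (median 0.29). The count depended on the fit: 40 without siI1 replicate 1, 19 to 30 without any of the other 5 libraries (19 without siI1 replicate 2), and 9 without an intensity trend. RPL13A of the large subunit went from 571, 539 and 576 to 725, 793 and 779 FPKM (0.45, adjusted p = 0.00615), without overlap, and RPL27 (0.48), RPL26 (0.49) and RPL31 (0.47) rose as well. Ribosomal protein genes rose in PANC1 too (58 members) and fell in MV3 (18), and their many pseudogenes make single members uncertain.

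Mitochondrial genes showed no common direction. Of 78 mitochondrial ribosomal protein genes 8 were higher (2 to 5 with any 1 library left out) and 3 lower (median 0.01). Of 79 oxidative phosphorylation genes 2 were higher and 4 lower (median 0.06), with 1 lower without siC replicate 1 or 3 or siI1 replicate 1 and none higher without siC replicate 1 or 2 or siI1 replicate 2 or 3, shares under those of all protein-coding genes. COX4I1, a nuclear-encoded subunit of cytochrome oxidase, was the largest fall of the latter, from 43.4, 43.7 and 42.4 to 20.8, 23.8 and 23.9 FPKM (-0.91, adjusted p = 0.00115), and it fell in ES2, MV3 and PANC1 too (-0.92, -0.63 and -0.54). MRPL33 rose (0.54). Of 54 translation factors 7 were higher and 6 lower (median -0.02), 1 to 5 and 2 to 5 with 1 library left out, the fewest higher without siI1 replicate 2. EIF5A2, an elongation factor isoform amplified in some tumours, rose from 3.42, 4.31 and 3.47 to 7.95, 6.84 and 7.32 FPKM (0.90, 0.00633).

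Of the ligands of the EGF receptor on the list of receptor and ERK signalling, EREG and AREG rose in A549, whereas HBEGF (0.22, adjusted p = 0.515) and TGFA (-0.14, 0.548), named after their values were seen, did not pass. EREG, epiregulin, went from 30.2, 31.9 and 27.2 to 60, 59.1 and 60 FPKM (0.99, SE 0.07, adjusted p = 0.00086) and changed by -0.77, -0.45 and -0.63 in ES2, MV3 and PANC1, the last without a call. AREG, amphiregulin, named after its values were seen, went from 23.2, 22.7 and 19.2 to 34.9, 37.5 and 37.7 FPKM (0.75, SE 0.08, 0.00382) and fell in ES2 (-1.75) and MV3 (-0.66). Neither gene's groups overlapped. DUSP6, a phosphatase that is induced by ERK and switches it off, was at 2.28, 2.55 and 1.72 FPKM in siC and 5.97, 4.99 and 4.08 in siI1 (1.04, SE 0.19, 0.0171), with no call without siC replicate 1 or siI1 replicate 1 or 2 (adjusted p up to 0.0611). MAP2K2, the kinase MEK2, fell from 19.8, 17 and 19.7 to 9.73, 10.3 and 10.3 FPKM (-0.86, 0.00208). On the whole list 9 of 38 were higher and 6 lower (median 0.14), and 4 members, among them EREG and DUSP6, rose more than in each other line. The number higher was 3 without siC replicate 1, 5 without siI1 replicate 1 or 2, and 6 or 7 otherwise.

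Secreted regulators were among the clearest A549 rises. IL11, a cytokine of the IL-6 family, went from 13.8, 16.6 and 15 to 37.7, 41.2 and 41.3 FPKM (1.38, SE 0.08, adjusted p = 0.000734), with 0.16, -0.02 and 0.00 in the other lines. IL11 was low there, with means of 0.90, 5.23 and 1.26 FPKM in ES2, MV3 and PANC1. DKK1, a secreted Wnt inhibitor, went from 14.2, 12.5 and 13.8 to 34.4, 37.9 and 39.5 FPKM (1.43, SE 0.08, 0.000586), with 0.17, -0.38 and -0.29. Both genes had siI1 values far above the siC values. IL6 itself was low, at 0.83, 0.607 and 0.772 FPKM in siC and 2.7, 2.66 and 1.5 in siI1 (1.15, 0.0335), a call that held without siI1 replicate 3 and was lost without any other 1 library (adjusted p up to 0.114). TNFAIP2 fell from 103, 101 and 103 to 59.3, 60.2 and 60 FPKM (-0.77, SE 0.04, 0.000474), and CXCL8 did not pass (0.27, 0.163). Of 29 NF-kB and cytokine genes tested 3 were higher and 4 lower (median 0.05), 2 or 3 of each with 1 library left out, with 2 lower in the 3 cases without a siC library.

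Liver-type acute phase and complement genes, which A549 cells express, gave 7 higher and 1 lower of 22 tested (median 0.16), 4 higher without siI1 replicate 2, and none lower with any 1 library left out. C1S, a protease of the classical complement pathway, rose from 30.8, 27.5 and 27.1 to 51.6, 46.8 and 48.7 FPKM (0.77, adjusted p = 0.0018), and C3 from 88.6, 84.7 and 90.8 to 112, 121 and 111 FPKM (0.38, 0.00778). CD59 (0.63) and TFPI (0.64), inhibitors of complement and of clotting, rose too. Interferon-stimulated genes gave 4 lower and none higher of 40 (median -0.29), a count that was 0 without siC replicate 1 or siI1 replicate 2 and 1 or 2 without any other library, whereas 19 rose in ES2. Class I antigen presentation gave 3 lower of 16 and none higher (median -0.35), and 1 lower without siC replicate 1 or 3.

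Redox and metabolic lists held both directions. NRF2 targets, antioxidant genes of a pathway known to be active in A549, gave 8 higher and 9 lower of 37 (median -0.14), and 3 to 5 higher and 4 to 7 lower with any 1 library left out. GPX2, a glutathione peroxidase, fell from 158, 125 and 123 to 44.6, 41.1 and 47.6 FPKM (-1.59, SE 0.11, adjusted p = 0.00106), ALDH3A1 from 388, 344 and 370 to 230, 244 and 222 FPKM (-0.66), and TXNRD1 from 238, 238 and 210 to 144, 145 and 146 FPKM (-0.65). SLC7A11, the cystine importer, rose from 42, 49.1 and 41.7 to 66.4, 73 and 69.3 FPKM (0.65, 0.00462), against -0.31, -1.24 and -0.24 in ES2, MV3 and PANC1. None of these overlapped between groups.

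Of 33 p53 targets 3 were higher and 8 lower (median -0.20; 1 or 2 and 4 to 7 with 1 library left out). CCNG1, a cyclin, rose from 55.7, 54 and 47.8 to 95.2, 88.9 and 94.9 FPKM (0.82, adjusted p = 0.00165), and the cell cycle inhibitor CDKN1A fell from 97.9, 92 and 94.6 to 70.5, 73.8 and 67 FPKM (-0.43). Of 35 genes of cholesterol and fatty acid synthesis 4 were higher and 8 lower (median -0.14; 1 or 2 and 3 to 5 with any 1 library left out), led by SREBF1, the regulator of fatty acid synthesis, from 18.3, 16.2 and 19.3 to 8.82, 8.87 and 8.79 FPKM (-0.98, 0.00146). SREBF1 also fell in the other lines (-0.81, -0.50 and -0.86).

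Of 36 genes of the unfolded protein and ATF4 response 5 were higher and 8 lower (median -0.03), with 4 lower without siC replicate 2 or 3 or siI1 replicate 3. SLC7A5, the large neutral amino acid transporter, fell from 158, 144 and 172 to 47.9, 46.9 and 50.7 FPKM (-1.69, SE 0.07, adjusted p = 0.000369), and more than in ES2, MV3 and PANC1 (-1.22, -0.97 and 0.22). SESN2, a leucine sensor that restrains mTORC1, fell from 7.1, 7.79 and 7.27 to 3.24, 3.69 and 3.92 FPKM (-0.94, 0.00338), and VLDLR rose from 4.99, 6.19 and 5.89 to 11.2, 11.3 and 11.5 FPKM (0.94, 0.00264). Lysosomal genes gave 5 higher and 4 lower of 36 (median 0.01), with 2 lower without siC replicate 3 or siI1 replicate 2. CTSC, a protease that activates others, rose from 9.83, 9.11 and 9.63 to 20, 19.9 and 20.2 FPKM (1.04, SE 0.06, 0.000602), and ATP6V1A of the proton pump fell from 32.1, 29.9 and 26.6 to 15.4, 16.9 and 17 FPKM (-0.83).

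Transcripts named in the field as IGF2BP1 targets did not move one way: 5 of 15 tested fell and 4 rose (median -0.07), 2 to 5 and 1 or 2 with 1 library left out, the fewest falls without siC replicate 1. HMGA2, an oncofetal chromatin protein, rose from 8.61, 9.45 and 8.14 to 17.1, 17.2 and 18.4 FPKM (0.97, SE 0.08, adjusted p = 0.00136), and HMGA1 from 93.5, 76.7 and 93.8 to 127, 127 and 128 FPKM (0.54). HMGA2 rose more than in ES2, MV3 and PANC1 (0.48, 0.17 and 0.09). MYC was at 40.7, 40.4 and 46.3 FPKM in siC and 50.2, 50.5 and 51.8 in siI1 (0.26, 0.0464), a call that held without siC replicate 3 and was lost without any other library (adjusted p up to 0.142). Of 19 oncofetal and let-7 genes 4 were higher and 2 lower (median 0.11), with 3 higher when any 1 library was left out and 1 lower without any siC library or siI1 replicate 2.

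The 15 transcripts that the study followed gave 10 lower and 3 higher (median -0.69), and 6 lower without siC replicate 1 or 3. The list was chosen by the study with these samples in hand, so its count is not independent evidence of a direction. Beside IGF2BP1, HDLBP and SRF, YWHAZ, a 14-3-3 protein, fell from 59, 70.2 and 62.9 to 35.4, 34.3 and 35.5 FPKM (-0.86). AURKA, a mitotic kinase, fell from 37.6, 39.5 and 41.2 to 30.6, 30.7 and 31.3 FPKM (-0.35, adjusted p = 0.00895). LINC00205, a long noncoding RNA, rose from 5.46, 4.7 and 5.08 to 10.9, 12.5 and 9.74 FPKM (1.05, 0.00338).

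Over all 12816 genes tested in every line, 246 were called lower in A549 and fell more than in each of the other 3 lines, and 224 were called higher and rose more. Genes named for the 7SL and 7SK RNAs took 10.2 to 15.5% of reads in PANC1 siC and 21.5 to 25.7% in PANC1 siI1. In A549 they took 4.01 to 5.02%. The part of this shift in the differences from PANC1 was not tested, and both counts were smaller with FPKM rescaled to the same sum. Of the 246, 241 were protein-coding, 127 were also lower in at least 1 other line and 75 were higher in at least 1. Of the 224, 207 were protein-coding, 60 were also higher in at least 1 other line and 97 were lower in at least 1. RAB15 fell from 20, 17.7 and 17.9 to 4.75, 5.07 and 4 FPKM (-1.90, SE 0.10, adjusted p = 0.000602), with -0.05, -0.47 and -0.17 in ES2, MV3 and PANC1, and PMEPA1 changed there by -0.15, -0.37 and -0.39. AK4 changed there by 0.34, 0.24 and -0.18, and BNIP3 by 0.24, 0.22 and -0.12. ARRB1, beta-arrestin 1, was low, at 3.07, 1.85 and 1.92 FPKM in siC and 0.64, 0.792 and 0.581 in siI1 (-1.23), and its call held when siC replicate 2 was left out but not for any other library (adjusted p up to 0.0781). The small nuclear RNAs RNU1-3 (1.80) and RNU4-2 (1.37) are on the list of rises and have near-identical copies, so their values are uncertain. RNU1-3 lost its call without siC replicate 1 or 2 and RNU4-2 without any library but siI1 replicate 2 (adjusted p up to 0.0656 and 0.0912).

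Of 453 genes called in all 4 lines, 396 changed the same way (322 lower and 74 higher), and 12 changed one way in A549 and the other way in the 3 other lines. NAMPT, the rate-limiting enzyme of NAD salvage, rose in A549 from 48.5, 47 and 41.5 to 71.5, 75.1 and 77.2 FPKM (0.70, SE 0.07, adjusted p = 0.00264) and fell in ES2, MV3 and PANC1 (-0.48, -0.33 and -0.42). Its pseudogene NAMPTP1 changed likewise (0.85) and cannot be kept apart from it. DCBLD2, a membrane receptor, rose from 215, 225 and 205 to 270, 271 and 274 FPKM (0.34) and changed by -0.41, -0.34 and -0.50 elsewhere. The other named rises of this kind were FMNL2 (0.40), a formin, and SNRPE (0.37), a core spliceosomal protein. FMNL2 lost its call without siC replicate 1 or 2 or siI1 replicate 1 or 2 (adjusted p up to 0.0634), NAMPTP1 without siC replicate 1 or any siI1 library (0.0718) and SNRPE without any library but siI1 replicate 1 (0.121).

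Among the falls that went against all other lines, beside KRT8 and TPM1, CNN2, a calponin, went from 47.2, 39.9 and 46.9 to 28.6, 33.8 and 27.9 FPKM (-0.56, SE 0.10, adjusted p = 0.0172), against 0.82, 0.18 and 0.47. TAX1BP3, a small PDZ protein, went from 25.5, 27.1 and 28.2 to 17.5, 22.4 and 19 FPKM (-0.45), against 0.61, 0.30 and 0.41. AP001972.5 (-1.18, chr11:75260129-75262466) lies within ARRB1 on its strand, so their reads cannot be told apart. Calls were lost for CNN2 without siC replicate 1 or 3 or siI1 replicate 1 or 3 (adjusted p up to 0.0647), for TAX1BP3 without any library but siI1 replicate 2 (0.0992) and for AP001972.5 without any but siI1 replicate 1 (0.101).

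**Figure D5:**
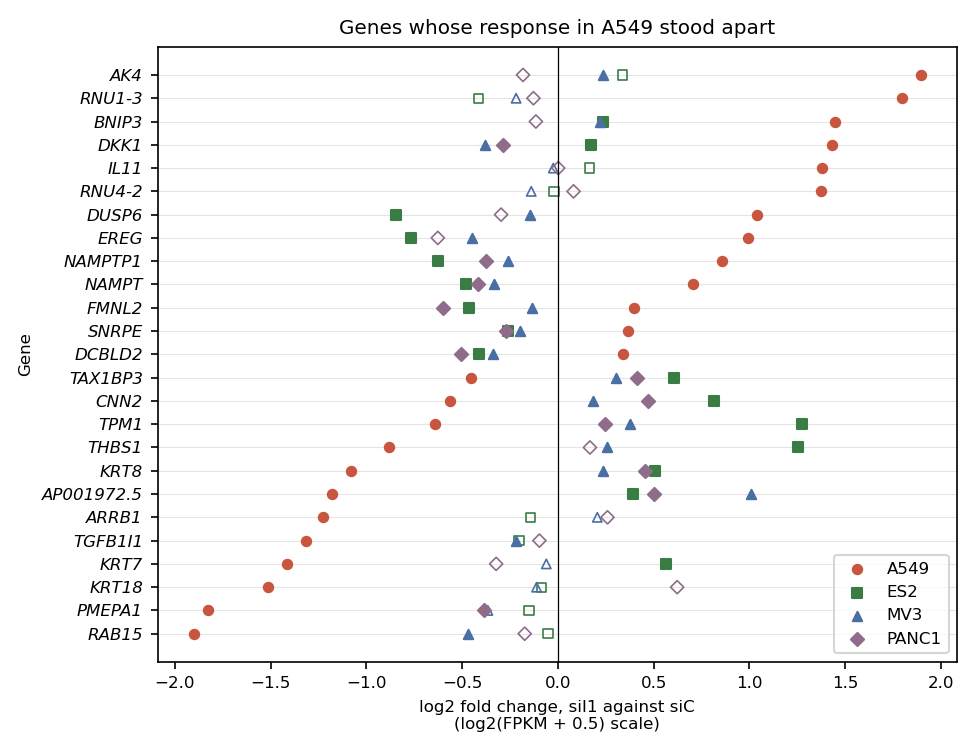
Log2 fold change (x axis) of 25 genes (rows) that fell or rose more in A549 than in each other line or changed there against all of them, in A549, ES2, MV3 and PANC1, filled where past the threshold. A549 points of RAB15, PMEPA1 and the keratins lie left of all others, and those of AK4, DKK1, IL11, BNIP3 and EREG lie right of all others.

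Of 987 lincRNAs tested 17 were lower (1.72%) and 36 higher (3.65%), smaller shares than among protein-coding genes. IGFL2-AS1 fell from 35, 38.3 and 37 to 7.46, 6.66 and 5.64 FPKM (-2.40, SE 0.10, adjusted p = 0.000369), and LINC02086 from 9.34, 9.51 and 9.81 to 3.22, 3.13 and 2.05 FPKM (-1.63). LINC00294 fell from 14, 13.8 and 15.8 to 4.7, 5.32 and 5.55 FPKM (-1.40, 0.00086). LUCAT1, a lincRNA induced by NRF2 and stress, rose from 11, 10.7 and 12.5 to 30.9, 28 and 26.1 FPKM (1.28, SE 0.09, 0.00105), and AL365181.2 (1.16) and MIR503HG (1.09) followed, the latter with no call without siC replicate 2 or siI1 replicate 2 or 3 (adjusted p up to 0.0688). IGFL2-AS1 is an antisense gene, and whether reads were counted by strand is not given in the sources used here.

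Of protein-coding genes called in A549 whose mean was under 0.1 FPKM in each other line, 45 were lower and 8 higher. How many tested genes met this condition was not counted, so no share is given. A wider set, protein-coding genes tested in A549 only, held 590 genes. Over all protein-coding genes tested the shares were 11.4% lower and 7.94% higher. TNFSF15 stood at 3.08, 3.38 and 2.63 FPKM in siC and at 0.473, 0.641 and 0.465 in siI1 (-1.78, SE 0.19, adjusted p = 0.00338), and DIRAS3, an imprinted Ras-related growth inhibitor, at 6.34, 6.24 and 7.4 and at 1.42, 1.23 and 2.72 FPKM (-1.70, 0.00886). Both were clearly lower in each siI1 library. AKR1B15, an aldo-keto reductase with a near copy in AKR1B10, went from 9.88, 8.77 and 9.6 to 15.2, 16 and 16.6 FPKM (0.73). The largest rise of this kind was in TNFAIP6, a secreted hyaluronan-binding protein induced in inflammation, from 0.776, 0.159 and 0 to 2.76, 3.9 and 3.04 FPKM (2.30, SE 0.38, 0.0134). It rested on 0 to 28 reads in a library and lost its call without siI1 replicate 2 (adjusted p = 0.0585).

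Genes called lower had a longer median 3′ untranslated region, in the GENCODE v44 annotation, than genes called higher or not called. The median length was 1972 bases for protein-coding genes called lower (quartiles 808 and 3635), 1561 for those called higher, 1467 for those not called and 1523 for all tested. It was 2415 for the genes that fell more in A549 than in each other line and 2042 for those that rose more. The latter also exceeded the 1972 of all genes called lower. Called genes were more abundant too, with medians of 11.88 FPKM (lower) and 15.47 FPKM (higher) against 6.059 FPKM for those not called. The part of abundance in these lengths was not tested. These medians are descriptions over genes, which are not independent, and the isoforms A549 cells use were not measured.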

How the data were processed

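Total RNA (TRIZOL, RiboCop depletion of ribosomal RNA, NEBNext Ultra Directional libraries, paired-end reads) was sequenced from A549 cells, 3 libraries per group. Per the submitters' notes and the methods, the authors clipped reads with Cutadapt 1.14, aligned them to hg38 with HISAT2 2.1.0, sorted them with SAMtools 1.5, counted them per Ensembl gene with featureCounts 1.5.3 and tested each line with edgeR 3.30.3. The deposited values are FPKM on TMM-adjusted totals; the unit was worked out from the values, 100% of which gave a whole number of reads within 0.001 read when multiplied by gene length and divided by a step fixed per library. The deposited tables also hold gene lengths and the authors' own log2 fold change, p-value and FDR, which were not used. Strand settings of the counting are not given in the sources used here. Each table lists 58174 genes, and all 37 mitochondrial genes are at 0.

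The A549 test took genes whose 6 libraries averaged 0.5 FPKM or more and used log2(FPKM + 0.5) in limma 3.58.1 under R 4.3.3 (two-sided moderated test, prior variance trended on intensity) and Benjamini-Hochberg adjustment, threshold 0.05. Differences between lines came from 1 fit over all 24 libraries, with genes tested in every line; a larger change in A549 required a call in A549 and 3 adjusted p-values under 0.05 for the differences. limma voom on the recovered reads called 2339 genes lower and 1837 higher. The steps were tested on simulated data with changes placed only in well-measured genes, so recovery of changes in low genes was not checked. Replicate pairs differed beyond counting noise (chi-square per gene 1.54 to 2.9), so each library counted as 1 replicate. Depth limits low genes: of 6676 genes tested with fewer than 20 reads on average, 169 were called.

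Members and lists were chosen with earlier results of these data known. Genes were named by rule: the 12 largest falls and rises (mean of at least 1 FPKM, groups apart, 20 reads or more in each library of the higher group), up to 8 falls and rises larger than in each other line, up to 5 per direction opposite to all other lines, up to 6 per list (the 3 largest called, the 2 most abundant and those against the majority), and 3 per direction for lincRNAs and for genes measured in A549 alone. Others are said to be chosen after their values were seen. Coordinates come from GENCODE v44 (hg38) and sequences from RefSeq (GRCh38.p14). Figures were drawn with matplotlib 3.10.9 under Python 3.11.15 (numpy 2.4.6, pandas 2.3.3).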

Additional observations from a re-analysis of the deposited data

Results flagged for a closer look

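In all, 246 genes called lower in A549 fell more, and 224 called higher rose more, than in each other line by the tests of the differences. The named ones are given with the smallest of their 3 log2 differences from another line. Among the falls these were RAB15 (-1.43), PMEPA1 (-1.44), KRT18 (-1.40), KRT8 (-1.32), TGFB1I1 (-1.10), KRT7 (-1.09), ARRB1 (-1.08) and THBS1 (-1.05). Among the rises they were RNU1-3 (1.92), AK4 (1.56), EREG (1.44), RNU4-2 (1.29), DKK1 (1.26), IL11 (1.21), BNIP3 (1.21) and DUSP6 (1.18).

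Genes that changed in A549 against all 3 other lines differed least by -1.57 (AP001972.5), -0.89 (TPM1), -0.75 (CNN2) and -0.75 (TAX1BP3) on the lower side. On the higher side the smallest differences were 1.12 (NAMPTP1), 1.04 (NAMPT), 0.53 (FMNL2), 0.56 (SNRPE) and 0.68 (DCBLD2). AK4, KRT18, KRT8, TGFB1I1, THBS1, DKK1, BNIP3 and NAMPT passed all difference tests in each of the 17 alternative settings. RNU4-2 and SNRPE did so in 8, AP001972.5 and TAX1BP3 in 9, and ARRB1, CNN2, NAMPTP1 and FMNL2 in 11. KRT7, PMEPA1 and EREG did so in 16, IL11 in 15 and RAB15 in 14, and none of these passed with a minimum mean of 1 FPKM in every line. KRT7 and PMEPA1 (0.88 and 0.76 FPKM in MV3) and IL11 (0.90 FPKM in ES2) lay under that minimum, so their differences were not tested there.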

How the results depend on the processing

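The A549 counts were 1441 genes lower, 1092 higher, 246 falls and 224 rises larger than in each other line. They moved by over 1.5 times as follows. limma voom called 2339 lower and 1837 higher. FPKM rescaled to the same sum left 35 larger falls and 103 larger rises, with 65.6% of called genes lower instead of 56.9%. Without an intensity trend 633 were higher and 140 were larger rises. Thinning to 3105215 reads left 124 larger falls and 118 larger rises. A fold minimum of 1 left 223, 155, 57 and 38. Leaving out 1 library gave 796 to 1036 lower, 526 to 761 higher, 157 to 222 larger falls and 131 to 180 larger rises. The replicate block gave 622, 379, 141 and 99; the shared numbers do not pair the libraries (correlations of deviations 0.0112, -0.0934 and -0.00182 over 8430 genes). The block left 9 glycolysis, 4 S phase, 4 G2 and M phase and 3 ribosomal protein genes called in the main direction, and 11 SRF and actin genes. Genes with a mean of 20 reads or more, a filter chosen after seeing the data, gave 2083 lower, 1578 higher, 285 larger falls and 289 larger rises. IGF2BP1 fell by 1.29 to 1.35 on the log2 scale under every setting and stayed past the threshold. Of 143 named genes called, 0 reversed, 30 lost their call under at least 1 setting and 26 under a setting other than a left-out library. ADM, not called, ranged from -0.068 to 0.11 with 1 library left out.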

Other observations

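LUM, a proteoglycan gene on the fibroblast marker list, was at 3.34, 3.68 and 2.2 FPKM in siC and at 0.723, 1.02 and 1.22 in siI1 (-1.25, limma adjusted p = 0.0209), and lost its call without siC replicate 1 or 2 or siI1 replicate 1 or 2 (adjusted p up to 0.08). The 6 fibroblast markers summed to 3.61 to 4.56 FPKM in siC and 1.53 to 2.45 in siI1, and only 2 were tested. The leukocyte markers summed to 2.14 to 2.99 FPKM in siC and 3.46 to 5.36 in siI1, with CD14 the 1 tested and PTPRC and CD3E at 0. The part of either in the results was not tested.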
